A study of Cyclotella cryptica with 27 samples.

Results

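Described here are 150 genes of the centric diatom Cyclotella cryptica, strain CCMP332, that carried no protein name in the deposited table and whose transcripts were most raised 30 min and 1 h after the cells entered freshwater. They were chosen by their measured values. Among the 5075 unnamed genes with a mean of at least 10 CPM (gene counts scaled to a common library size), they had the highest score, which was the mean log2 CPM of the 30 min and 1 h groups minus the mean of the seawater control, 0 min, 8 h and 10 h groups. The whole table listed 21250 genes, of which 15440 had no name. Scores ran from 1.12 to 4.91 on the log2 scale, with a median of 1.40. The last genes taken were CCRYP_003931, CCRYP_020919 and CCRYP_015446, with scores of 1.13, 1.12 and 1.12. The first left out were CCRYP_018881, CCRYP_004031 and CCRYP_012686, all with a score of 1.10.

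Transcript abundance was measured by sequencing of polyA RNA. Exponentially growing cultures were kept at 24 ppt salinity, with a temperature of 15 °C and a daily cycle of 16 h light and 8 h dark. The cells were collected by spinning, placed in freshwater of 0 ppt and sampled at 0, 15 and 30 min and at 1, 2, 4, 8 and 10 h. A seawater control at 24 ppt was sampled as well, so there were 9 groups of 3 labelled replicates, all of 1 strain. Since the seawater control was a single group without later time points, the effects of freshwater, of handling and of the time of day cannot be told apart.

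A diatom that meets freshwater takes up water by osmosis and has to shed osmolytes and ions while it rebuilds its cell volume and turgor. Euryhaline species such as Cyclotella cryptica survive this in culture. Diatom genomes hold many genes without a recognisable counterpart in other organisms, and a gene without a protein name in such a table has only its behaviour as a description. For that reason no function is given to any of the 150 genes.

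The labelled replicates were not all independent. In the seawater control and at 0 min, replicate 2 differed from replicate 1 by a fixed number of counts in 99.95% of genes that had 100 counts or more, and at 1 h in 94.5%. At 30 min, 2 h, 4 h and 8 h, 1 column equalled the mean of the other columns, within 0.5 counts, in 99.95% to 99.96% of such genes. At 15 min, the second replicate followed 0.655 times the first plus 0.333 times the third. Only 16 columns were therefore used, so that n was 3 at 10 h, 1 for seawater, 0 min and 1 h, and 2 for the remaining times. These columns held 2809130 to 6889349 gene counts. One unnamed gene, CCRYP_005887, took 5.24% to 23.3% of all gene counts and was left out before scaling. Of the diatom's pigment proteins, 25 of 26 genes named fucoxanthin proteins had counts in every one of the 16 columns, as had the 1 gene named for silica or frustulin.

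In seawater the 150 genes together reached 3403 CPM (n = 1), and at 0 min 4803 CPM (n = 1). At 30 min the sum was 11545 and 10128 CPM in the 2 columns, and at 1 h it was 11234 CPM. At 8 h the sum was 3122 and 2910 CPM, the lowest of the series, and at 10 h it lay between 3881 and 4152 CPM in the 3 columns. These times chose the genes, so their levels are a description. Of the counts of all genes tested, with CCRYP_005887 left out, the genes took 0.322% in seawater and 1.26% and 1.11% at 30 min. CPM are shares of a library, so more transcript of these genes and less of others cannot be told apart.

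**Figure D1:**
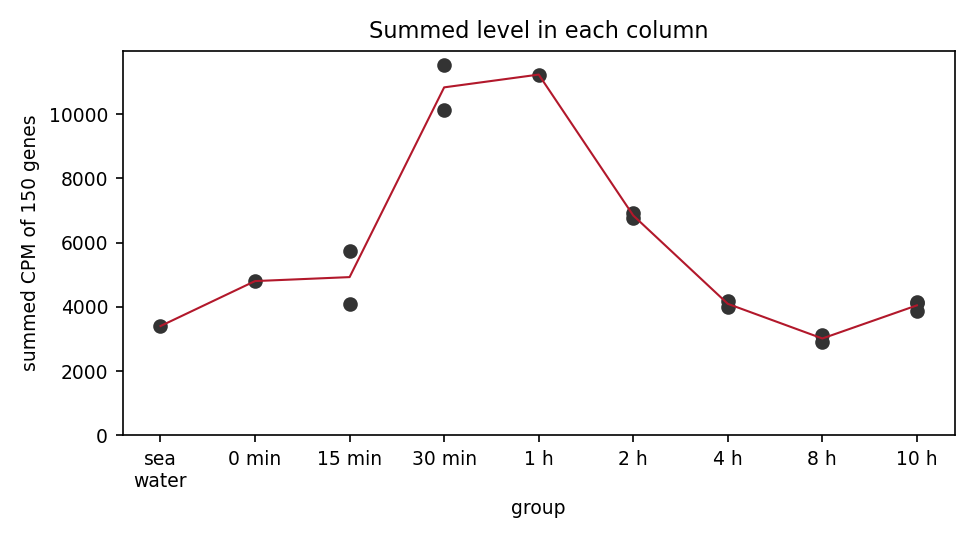
Summed CPM of the 150 genes (vertical axis, from 0) in each of the 16 independent columns (points), with the mean of each group (line). The sum was at least 10128 CPM at 30 min and 1 h, between 6762 and 6930 CPM at 2 h and between 2910 and 5751 CPM in every other column.

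The times 15 min, 2 h and 4 h did not enter the score, although their columns counted towards the mean of at least 10 CPM. At 15 min the sum was 4103 CPM in replicate 1 and 5751 CPM in replicate 3, or 4927 ± 1165 (SD, n = 2). At 2 h it was 6930 and 6762 CPM, or 6846 ± 119 (SD, n = 2). At 4 h it was 4197 and 3992 CPM, or 4095 ± 144 (SD, n = 2). Both 2 h columns were above all 4 columns of 15 min and 4 h, whereas those of 15 min and 4 h overlapped. The pattern did not rest on the pair of genes with the highest scores: without them the mean sums were 4765 CPM at 15 min, 6566 CPM at 2 h and 4060 CPM at 4 h.

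**Figure D2:**
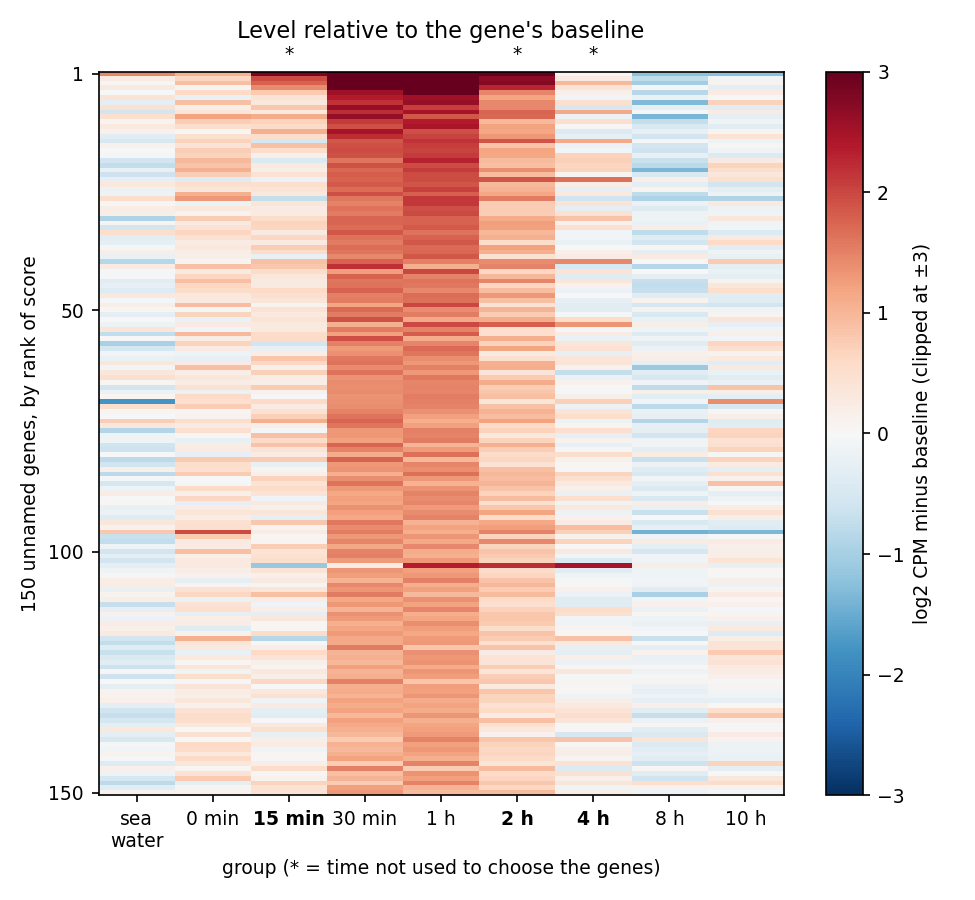
Mean log2 CPM of each of the 150 genes (rows, by rank of score) in each of the 9 groups (columns), minus the gene's own mean over the seawater control, 0 min, 8 h and 10 h. Asterisks mark 15 min, 2 h and 4 h, which did not enter the score. The 2 h column is red for most genes, whereas 15 min and 4 h are pale except in a few rows.

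Each gene's place on the way from its baseline, the mean log2 CPM of seawater, 0 min, 8 h and 10 h, to its acute level, the mean of 30 min and 1 h, was expressed in percent. The median gene stood at 20.6% at 15 min, at 58.3% at 2 h and at 6.89% at 4 h. The quartiles were 8.36% and 37.2% at 15 min, 44.9% and 71.8% at 2 h, and -9.05% and 26.0% at 4 h. At 2 h, 103 genes (68.7%) were at or above 50%, against 16 genes at 15 min and 10 genes at 4 h. At or below 0% stood 22 genes at 15 min, 0 genes at 2 h and 56 genes at 4 h. The ends of this scale chose the genes, so the percentages are a description. Without 8 h and 10 h in the baseline the 4 h median was -0.15%, and without 0 min it was 14.0%.

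The columns of 15 min did not agree on how far the genes had moved. Replicate 3 was above replicate 1 in 128 of the 150 genes, with a median difference of 0.49 in log2 CPM, whereas over all genes tested replicate 3 was the higher one in 48.4%, with a median difference of -0.01. In the single 0 min column the median gene was at 18.1 CPM. At 15 min it was lower than that in replicate 1, at 16.7 CPM, and higher in replicate 3, at 23.0 CPM. Only replicate 3 was thus above 0 min, while the baseline also held the other scored times. The median position was 10.4% in replicate 1 and 37.6% in replicate 3. In contrast, the columns of 2 h stood at 60.2% and 56.2%, and those of 4 h at 14.0% and 4.78%. Every comparison with 15 min below carries this gap, which the fit counts as spread between replicates.

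Whether the genes differed among the 3 unscored times was tested with edgeR's quasi-likelihood test, fitted across all 12498 genes that passed the filter on low counts, with Benjamini-Hochberg adjustment over all of them. A gene was called at an adjusted p below 0.05. Counts for fits without 1 column are given without their share over all genes. They therefore show only how far calls among the 150 genes rested on single columns. All 150 genes passed the filter, since it was applied before they were chosen. Of these, 51 (34%) differed among 15 min, 2 h and 4 h, against 9.07% of all genes tested and 11.3% of the unnamed genes with a mean of at least 10 CPM. Without replicate 1 of 2 h the number was 29. The level was highest at 2 h among these 3 times in 133 genes (88.7%), at 15 min in 10 and at 4 h in 7. Over all genes tested 32.4% were highest at 2 h. Both 2 h columns lay above all columns of 15 min and 4 h in 71 of the 150 genes (47.3%), against 9.62% of all genes tested. That share was 56.1% in the 344 named genes that reached the same score and 35.3% in the next 150 unnamed genes. In the test over all 3 times, 39.5% and 14.7% of these 2 sets were called, so the pattern was not particular to the 150 genes.

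From 15 min to 2 h, 18 genes rose (12%), against a background of 2.71% of all genes tested called higher and 4.68% called in either direction. None of the 150 genes fell by this test, where 1.97% of all genes did. At an unadjusted p below 0.05, 63 of the 150 genes were higher and 1 was lower. Over all 12498 genes tested, 1336 were higher and 975 lower at that threshold. DESeq2 called 14 of the 150 higher and 0 lower, and its share over all genes is not given here. The median log2 fold change was 0.53, with quartiles of 0.31 and 0.76, beside 0.05 over all genes tested, and 139 of 150 genes (92.7%) had a value above 0. In 89 genes (59.3%) both 2 h columns lay above both 15 min columns, against 27.1% of all genes. In 2 genes both lay below, against 22% of all genes. Without replicate 1 of 15 min, the column with the lower levels, 3 genes were called, and without replicate 1 of 2 h 4 genes were called.

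From 2 to 4 h, 35 genes fell (23.3%), against a background of 1.76% of all genes tested called lower and 1.98% called in either direction. None of the 150 rose, where 0.216% of all genes did. At an unadjusted p below 0.05, 88 of the 150 genes were lower and 0 were higher. Over all 12498 genes tested, 1022 were lower and 703 higher at that threshold. DESeq2 called 33 of the 150 lower and 0 higher, again without its share over all genes given here. The median log2 fold change was -0.71, with quartiles of -1.04 and -0.43, beside 0.03 over all genes. Only 6 of the 150 genes had a value above 0. In 116 genes (77.3%) both 4 h columns lay below both 2 h columns, against 19.8% of all genes. In 2 genes both lay above, against 19.7%. The number of genes called fell to 14 without replicate 1 of 2 h, to 15 without replicate 3 of 2 h and to 7 without replicate 2 of 4 h, and in each case all of them were lower.

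From 15 min to 4 h genes were called in both directions. Over all genes tested 7.9% were called in this comparison. At 4 h, 5 genes (3.33%) were higher than at 15 min, against 5.24% of all genes tested, and 13 genes (8.67%) were lower, against 2.66%. The median log2 fold change was -0.26, beside 0.02 over all genes. The columns did not overlap in 20 genes upwards and 46 genes downwards, or 13.3% and 30.7%, against 25.4% and 23.2% of all genes. The split depended on the 15 min columns. Without replicate 3 of 15 min, 7 genes were higher and 3 lower, and without replicate 1, 3 were higher and 20 lower. Without replicate 2 of 4 h, 2 were higher and 4 lower.

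**Figure D3:**
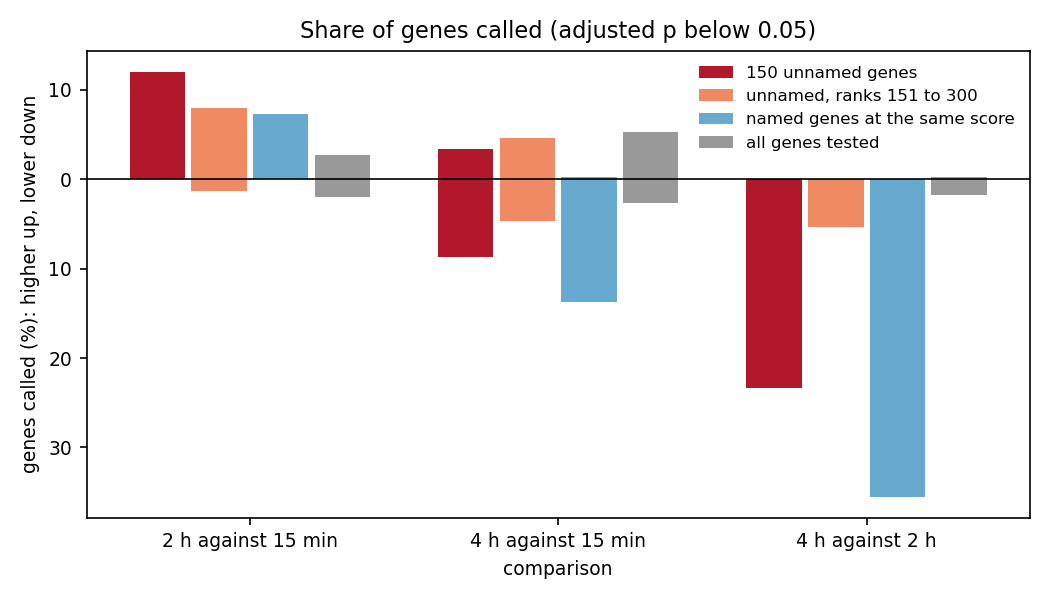
Share of genes called by edgeR's quasi-likelihood test (vertical axis, percent; higher above the line, lower below it) in the 3 comparisons among unscored times, for the 150 genes, the next 150 unnamed genes by score, the named genes with the same scores and all genes tested. From 2 to 4 h the share called lower was 23.3% in the 150 genes, 5.33% in the next 150, 35.5% in the named genes and 1.76% in all genes.

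Taking the 3 comparisons together, 53 genes were called in at least 1 of them and 97 in none. A rise from 15 min to 2 h followed by a fall from 2 to 4 h was called at both steps in 3 genes, CCRYP_006689, CCRYP_014128 and CCRYP_016531, which were picked out after their values were seen. The remaining 15 genes that rose to 2 h were not called lower at 4 h than at 2 h, and 5 of them were also higher at 4 h than at 15 min. Of the 13 genes lower at 4 h than at 15 min, 10 had also fallen from 2 to 4 h. CCRYP_014128 had 94.5 and 99.5 CPM at 15 min, 163 and 141 at 2 h and 57.5 and 78.1 at 4 h. CCRYP_016531 had 25.4 and 33.0 CPM at 15 min, 59.1 and 52.2 at 2 h and 29.3 and 26.9 at 4 h. In both genes the 2 h columns stood above all columns of 15 min and 4 h, but below every column of 30 min and 1 h.

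The highest score belonged to CCRYP_006475. It was at 23.0 CPM in seawater, 17.4 at 0 min, 40.5 and 91.7 at 15 min, 268 and 258 at 30 min, 264 at 1 h, 134 and 146 at 2 h, 6.23 and 11.3 at 4 h, 2.47 and 3.97 at 8 h, and 1.56, 2.99 and 5.81 at 10 h. Every column from 4 h on lay below the seawater and 0 min columns, so the late levels were lower than the starting ones. From 2 to 4 h it fell by 4.02 ± 0.43 on the log2 scale (SE; edgeR adjusted p 0.000483), and from 15 min to 4 h it fell by 2.92 ± 0.44 (SE; edgeR adjusted p 0.00108).

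CCRYP_018166 followed with 25.1 CPM in seawater, 33.3 at 0 min, 49.1 and 144 at 15 min, 460 and 325 at 30 min, 425 at 1 h, 123 and 158 at 2 h, and 28.9 and 23.0 at 4 h. It was at 14.2 and 10.5 CPM at 8 h and between 18.3 and 21.3 CPM at 10 h. The 15 min columns were nearly 3-fold apart, with replicate 3 at the level of 2 h. From 2 to 4 h it fell by 2.42 ± 0.43 on the log2 scale (SE; edgeR adjusted p 0.0150), a call that was lost without any single column of 2 h or 4 h. From 15 min to 4 h it fell by 1.87 ± 0.43 (SE; edgeR adjusted p 0.0230), and this call was lost with limma-voom, without replicate 3 of 15 min and without either column of 4 h.

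**Figure D4:**
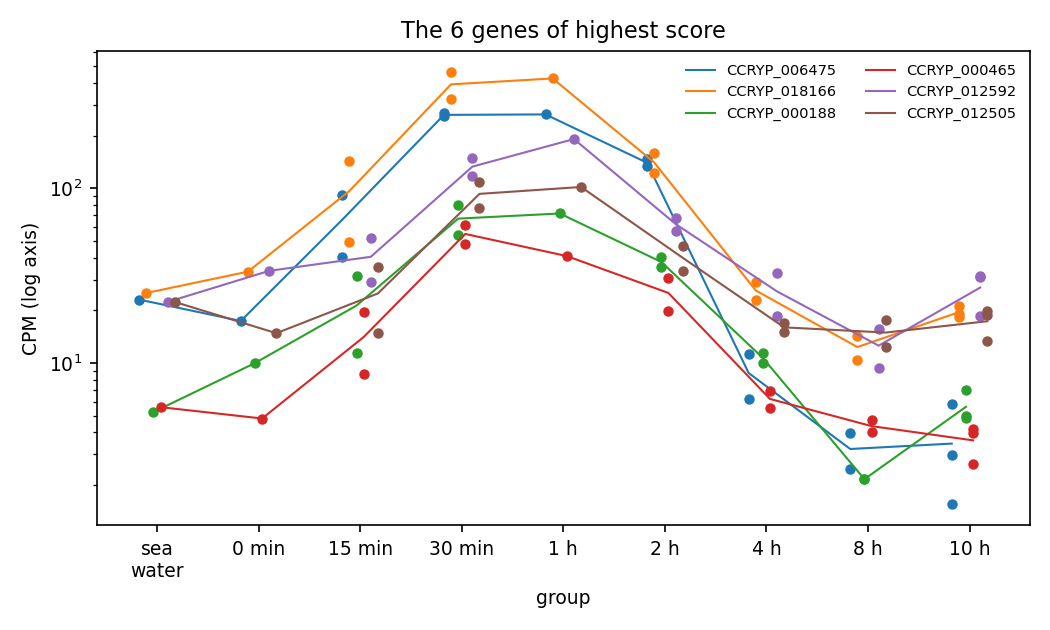
CPM on a log axis for the 6 genes of highest score in each of the 16 independent columns (points), with group means joined by lines. All 6 were at 30 min and 1 h above their levels at every other time, and at 4 h below their 2 h columns.

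The next 4 genes by score were also highest at 30 min or 1 h and lower at 4 h than at 2 h, at lower levels. CCRYP_000188 had 5.23 CPM in seawater, 11.3 and 31.3 at 15 min, 79.7 and 54.2 at 30 min, 71.6 at 1 h, 40.2 and 35.5 at 2 h, and 11.4 and 9.99 at 4 h. CCRYP_000465 had 5.58 CPM in seawater, 8.59 and 19.5 at 15 min, 61.5 and 47.9 at 30 min, 40.9 at 1 h, 19.7 and 30.6 at 2 h, and 5.50 and 6.95 at 4 h. Both were therefore above their seawater column in each 15 min column, and clear of their 4 h columns at 2 h. CCRYP_012592 was at 22.3 CPM in seawater, 33.7 at 0 min and 28.9 and 52.1 at 15 min, so its lower 15 min column was below 0 min. It had 191 CPM at 1 h, 57.1 and 67.7 at 2 h and 32.6 and 18.7 at 4 h. CCRYP_012505 was at 22.3 CPM in seawater, 14.8 at 0 min and 14.8 and 35.2 at 15 min, so its lower 15 min column was below seawater. It had 102 CPM at 1 h, 33.5 and 46.5 at 2 h and 15.0 and 16.9 at 4 h. All 4 fell from 2 to 4 h, with log2 fold changes between -2.02 ± 0.37 for CCRYP_000465 and -1.27 ± 0.32 for CCRYP_012592 (SE; edgeR adjusted p 0.00318 and 0.0475). None of the 4 was called between 15 min and 2 h or between 15 min and 4 h.

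The 5 most abundant of the 150 genes had scores between 1.13 and 1.60. CCRYP_009205 had a mean of 247 CPM over the 16 columns, with 152 CPM in seawater, 216 and 287 at 15 min, 401 and 444 at 30 min, 322 and 291 at 2 h and 220 and 164 at 4 h. Its 0 min column, at 252 CPM, lay between those of 15 min and above both of 4 h. CCRYP_007490 had a mean of 237 CPM, with 131 CPM in seawater, 147 and 235 at 15 min, 586 and 392 at 30 min, 235 and 250 at 2 h and 161 and 180 at 4 h. Its 0 min column, at 240 CPM, was above both columns of 15 min and between those of 2 h. At 10 h this gene was at 172 to 208 CPM. In both genes the 2 h columns lay above those of 4 h. The other 3 of the 5 most abundant genes, CCRYP_016251, CCRYP_013208 and CCRYP_009016, had means between 147 and 156 CPM. Of these 5 genes only CCRYP_009205 was called in any of the 3 comparisons, between 2 and 4 h, with a log2 fold change of -0.67 ± 0.18 (SE; edgeR adjusted p 0.04999, just below the threshold).

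A small set of genes was still high at 4 h. The 5 called higher at 4 h than at 15 min were 3.33% of the 150. That share was below the 5.24% of all genes tested and the 7.88% of unnamed genes with a mean of at least 10 CPM. They are therefore described only as single genes. CCRYP_001072 was the extreme case. It was at 11.2 CPM in seawater, 16.6 at 0 min, 5.15 and 6.52 at 15 min, 12.5 and 20.5 at 30 min, 71.2 at 1 h, 62.3 and 68.5 at 2 h, 70.7 and 86.4 at 4 h, 13.9 and 17.7 at 8 h and 9.64 to 13.0 at 10 h. Of its scored columns only that of 1 h was above 20.5 CPM, and its 30 min columns overlapped those of the baseline times. The levels at 2 h and 4 h, which did not enter the score, were 62.3 to 86.4 CPM, close to or above that column. Its log2 fold change from 15 min to 2 h was 3.49 ± 0.30 (SE; edgeR adjusted p 2.25e-08) and was higher at 4 h than at 15 min by 3.75 ± 0.29 (SE; edgeR adjusted p 3.61e-09). Both calls held under every alternative run for this gene.

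CCRYP_015400 and CCRYP_005125 were also low at 15 min and higher at 30 min, 2 h and 4 h. CCRYP_015400 was at 6.98 CPM in seawater, 5.84 and 9.12 at 15 min, 33.5 and 27.4 at 30 min, 30.7 and 34.7 at 2 h, and 26.0 and 30.0 at 4 h. Against 15 min its log2 fold change was 2.15 ± 0.35 at 2 h and 1.92 ± 0.36 at 4 h (SE; edgeR adjusted p 0.000311 and 0.000797). CCRYP_005125 was at 4.54 CPM in seawater, 11.1 at 0 min, 4.12 and 4.78 at 15 min, 26.5 and 25.1 at 30 min, 30.7 and 22.0 at 2 h, and 20.5 and 11.3 at 4 h. Its lower 4 h column was at the level of 0 min, and its 15 min columns held 12 and 11 counts. It was higher than at 15 min by 2.57 ± 0.40 at 2 h and by 1.85 ± 0.42 at 4 h (SE; edgeR adjusted p 0.000184 and 0.00551), and the 4 h call was lost without either 15 min column or without replicate 2 of 4 h.

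CCRYP_010175 stood at 14.3 CPM in seawater and 45.5 at 0 min, then at 13.1 and 10.4 at 15 min, 43.6 and 53.9 at 30 min, 39.0 and 35.1 at 2 h and 57.2 and 28.2 at 4 h. The 0 min column lay between those of 30 min, and both 15 min columns were lower. Its log2 fold change from 15 min to 4 h was 1.86 ± 0.34 (SE; edgeR adjusted p 0.00123), a call that was lost without replicate 2 of 4 h. The fifth gene called higher at 4 h than at 15 min, CCRYP_020584, was picked out after its values were seen. It had 64.6 CPM in seawater, 84.7 at 0 min, 53.2 and 75.6 at 15 min, 179 and 115 at 2 h and 121 and 108 at 4 h. Both 15 min columns were thus below that of 0 min. The log2 fold change of this gene from 15 min to 4 h was 0.83 ± 0.20 (SE; edgeR adjusted p 0.00982). At 8 h and 10 h it was at 40.5 to 50.9 CPM.

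**Figure D5:**
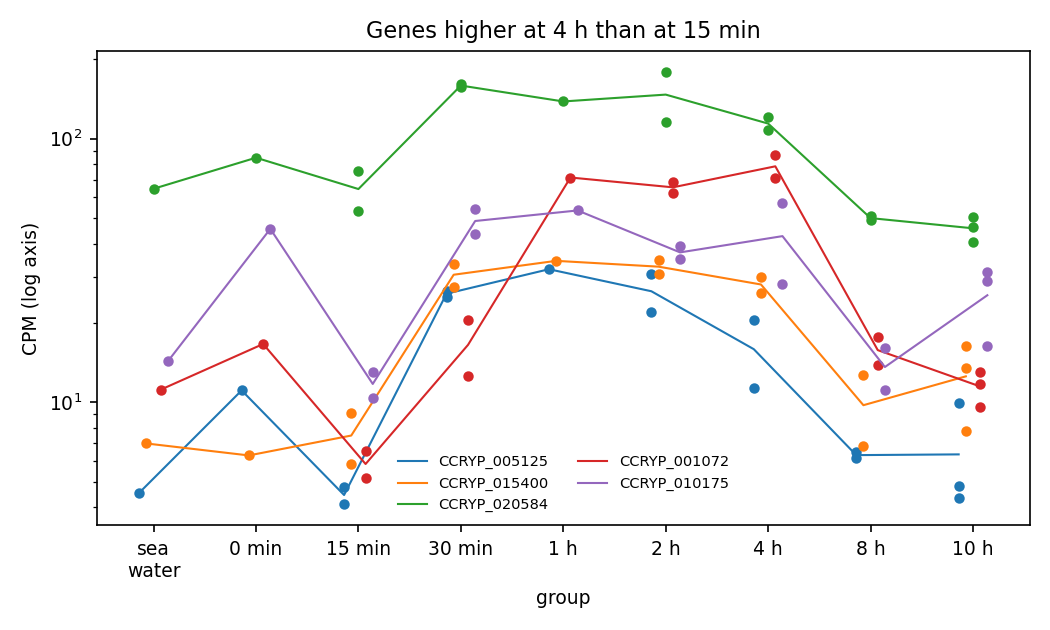
CPM on a log axis for the 5 genes called higher at 4 h than at 15 min, in each of the 16 independent columns (points), with group means joined by lines. The 4 h columns of every gene lie above both of its 15 min columns, and CCRYP_001072 is the only one of the 5 whose 30 min columns stay near its seawater level.

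Close to their acute level at 4 h, without a call against 15 min, were CCRYP_016053 and CCRYP_015939, at positions of 87.6% and 86.7%. CCRYP_016053 had 11.0 and 24.8 CPM at 15 min, 23.6 and 24.9 at 2 h and 21.6 and 28.2 at 4 h. CCRYP_015939 had 5.50 and 8.69 CPM at 15 min, 22.5 and 19.2 at 2 h and 13.9 and 15.6 at 4 h. Its mean of 10.7 CPM, just above the minimum for the choice, included these columns. Between 15 min and 2 h CCRYP_015939 rose by 1.57 ± 0.34 on the log2 scale (SE; edgeR adjusted p 0.00540).

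Other genes were raised early and low by 4 h. CCRYP_004354 was at 20.9 CPM in seawater, 22.7 and 32.1 at 15 min, 37.7 and 49.3 at 30 min, 27.1 at 1 h, 38.6 and 22.0 at 2 h and 9.53 and 13.0 at 4 h. Its position at 15 min was 76.4%, the highest of the 150, although its seawater column was close to the lower 15 min column. Its log2 fold change from 15 min to 4 h was -1.28 ± 0.34 (SE; edgeR adjusted p 0.0192). CCRYP_019694 was at 76.4 CPM in seawater, 152 and 160 at 15 min, 263 and 165 at 30 min, 238 at 1 h, 95.8 and 116 at 2 h, 63.8 and 78.1 at 4 h and 120 to 156 at 10 h. It stood higher at 15 min than at 2 h in both columns and had a log2 fold change from 15 min to 4 h of -1.14 ± 0.21 (SE; edgeR adjusted p 0.000628). CCRYP_011108 and CCRYP_020345, at positions of 71.7% and 61.9% at 15 min, were called in none of the 3 comparisons.

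CCRYP_008176 and CCRYP_012501 were below their seawater column in both columns of 4 h. CCRYP_008176 was at 14.0 CPM in seawater, 22.0 and 34.7 at 15 min, 87.4 and 61.5 at 30 min, 24.0 and 36.3 at 2 h and 12.8 and 6.95 at 4 h, and its log2 fold change from 15 min to 4 h was -1.48 ± 0.34 (SE; edgeR adjusted p 0.00614). CCRYP_012501 was at 55.1 CPM in seawater, 60.8 and 84.7 at 15 min, 174 and 107 at 30 min, 48.9 and 67.7 at 2 h and 19.1 and 36.9 at 4 h, and its log2 fold change from 15 min to 4 h was -1.39 ± 0.31 (SE; edgeR adjusted p 0.00840). Both calls were lost without replicate 3 of 15 min, and without replicate 3 of 4 h for the first and replicate 2 of 4 h for the second. CCRYP_014904 fell from 95.4 and 118 CPM at 2 h to 30.0 and 54.7 at 4 h, a log2 fold change of -1.34 ± 0.23 (SE; edgeR adjusted p 0.00150). CCRYP_003135 and CCRYP_014843, with positions of -43.4% and -32.3% at 4 h, were called in none of the 3 comparisons, although CCRYP_014843 was among the 51 genes called in the test over all 3 times (edgeR quasi-likelihood adjusted p 0.0481).

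CCRYP_006689 was one of the lower expressed genes. It was at 9.77 CPM in seawater and 17.0 at 0 min, then at 1.37 and 9.12 at 15 min, from 4 and 21 counts, at 17.2 and 25.1 at 30 min, 30.8 at 1 h, 18.5 and 22.0 at 2 h and 4.40 and 3.91 at 4 h. From 15 min to 2 h it rose by 2.03 ± 0.47 on the log2 scale, and from 2 to 4 h it fell by 2.27 ± 0.48 (SE; edgeR adjusted p 0.0112 and 0.0103). The first call was lost without replicate 1 of 15 min or either column of 2 h, and the second without replicate 3 of 2 h or either column of 4 h. CCRYP_007007 was at 12.6 and 23.2 CPM at 2 h and 5.86 and 2.60 at 4 h, a fall of -2.04 ± 0.40 (SE; edgeR adjusted p 0.00570) that was lost without replicate 3 of 2 h or replicate 3 of 4 h. CCRYP_005826 had one of the lowest positions at 15 min, -38.2%, with 3.09 and 8.69 CPM there, and was not called in any of the 3 comparisons.

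The gene's highest group was 1 h for 95 of the 150 genes and 30 min for 53. Since both times were scored and 1 h had a single column, this order is a description. The 2 exceptions, named here for that reason, were CCRYP_001072, highest at 4 h, and CCRYP_017639, highest at 0 min. CCRYP_017639 had 15.7 CPM in seawater, 35.9 at 0 min, 11.0 and 9.56 at 15 min, 21.9 and 31.7 at 30 min, 19.4 at 1 h and 48.9 and 13.5 at 2 h. Its 8 h and 10 h columns, at 1.54 to 5.05 CPM, gave it its score, rather than a peak at 30 min and 1 h. For CCRYP_017639 an acute rise did not describe the values. CCRYP_003637, picked out after its values were seen, was at 53.8 to 66.8 CPM at 10 h. That was close to its 54.9 to 67.3 CPM at 30 min and 1 h. Its seawater column was at 6.28 CPM and its 0 min column at 32.9 CPM.

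Of the 150 genes, 8 were next in number to another of them, forming 4 pairs. Of the next 150 unnamed genes by score, 0 were next in number to another of that set, and the sets were not tested against each other. Whether gene numbers follow chromosomal order was not examined. The pair with the highest scores was CCRYP_013943 and CCRYP_013944. CCRYP_013943 had 62.7 and 70.1 CPM at 2 h and 41.4 and 31.3 at 4 h, and CCRYP_013944 had 33.9 and 46.9 at 2 h and 16.9 and 15.6 at 4 h. Both fell from 2 to 4 h, with log2 fold changes of -0.86 ± 0.21 and -1.31 ± 0.27 (SE; edgeR adjusted p 0.0285 and 0.00644). The other pairs were CCRYP_015318 with CCRYP_015319, CCRYP_017992 with CCRYP_017993, and CCRYP_019694 with CCRYP_019695. In the last pair the members differed at 15 min, where both columns of CCRYP_019694 were above those of 2 h, and CCRYP_019695 had 26.1 and 36.9 CPM against 54.4 and 44.0 at 2 h. Next in number to a named gene that reached the same score were 6 of the 150 genes (4%), close to the 3.65% of all 5075 unnamed genes with a mean of at least 10 CPM (185 genes). For CCRYP_006760 that neighbour was named mRNA turnover protein 4 homolog, a ribosome assembly factor. For CCRYP_007730 the neighbours were named 60S ribosomal protein L15-2 and MKI67 FHA domain-interacting nucleolar phosphoprotein, and for CCRYP_010420 the neighbour was named ribosome assembly protein 1. The neighbours of CCRYP_016163, CCRYP_003042 and CCRYP_007959 were named a protein disulfide-isomerase-like protein, carnosine N-methyltransferase and bifunctional phosphatase IMPL2.

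Genes with a deposited name reached the same score more often. Of 4982 named genes with a mean of at least 10 CPM, 344 (6.9%) had a score at or above that of the last of the 150 genes, against 150 of the 5075 unnamed genes (2.96%). The word ribosom stood in 66 of those 344 names (19.2%), against 3.63% of the named genes, and RNA in 61 (17.7%), against 7.83%. A helicase was named in 14 (4.07%, against 2.29%) and a kinase in 19 (5.52%, against 6.8%). Heat shock or HSF was named in 6 (1.74%, against 1.26%) and a chaperone, DnaJ or Hsp in 8 (2.33%, against 1.65%). Transcription stood in 4 names (1.16%, against 2.45%), transporter or channel in 4 (1.16%, against 4.96%) and uncharacterized in 5 (1.45%, against 3.07%). A zinc finger was named in 1 (0.291%, against 0.662%), calmodulin, calcineurin or calcium in 1 (0.291%, against 1.49%) and ubiquitin in 0 (against 2.47%). These named genes were chosen by the same values, so the counts are a description.

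Set beside the named genes of the same score, the 150 unnamed genes had the higher median log2 fold change against 15 min, with 0.53 against 0.42 at 2 h. From 15 min to 4 h, 47 of the 344 named genes (13.7%) were lower and 1 was higher, where the unnamed genes had 13 lower and 5 higher. The median log2 fold change of that comparison was -0.39 in the named and -0.26 in the unnamed genes. From 2 to 4 h, 122 named genes (35.5%) were called lower and none higher, with a median of -0.80. The median position at 4 h was -0.39% in the named genes and 6.89% in the unnamed ones. These sets were not tested against each other. The next 150 unnamed genes by score showed 12 higher and 2 lower from 15 min to 2 h and 8 lower from 2 to 4 h, with medians of 0.34 and -0.40.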

How the data were processed

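The authors deposited raw counts of reads per gene for 27 columns. STAR 2.7.3a, HTSeq 0.11.3 and edgeR are named in the submitters' processing notes, and neither their roles nor the build, annotation or strandedness were stated in what was used here. Reads aligned in more than 1 place were 15.9% to 34.1% of gene, multiply aligned and ambiguous reads together and were not counted to genes, as were ambiguous reads (at most 0.0467%). Near-identical copies and overlapping genes are therefore uncertain. Rows that summarise unassigned reads entered neither library sizes nor tests. Columns of per-sample values matched to no sample numbered 0. The authors' table of fold changes was not used. No gene ID matched the 14109 genes of the reference table, so no sequence or position is given.

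Nothing says that replicates came from separate cultures, so p-values measure only the spread between these columns. CCRYP_005887 was removed, genes were kept by filterByExpr (minimum count 10, minimum total 15; 12498 genes) and counts were scaled by TMM. Log2 CPM used a prior count of 2. The score took the mean of group means of log2 CPM, and mean CPM ran over the 16 columns. The test was edgeR 4.0.16's robust quasi-likelihood test (R 4.3.3), with 1 coefficient per group in 1 fit of all 9 groups (7 residual degrees of freedom, common biological coefficient of variation 14.1%). A group with 1 column was assumed to vary like the others. Standard errors were derived from the F statistic. Benjamini-Hochberg adjustment ran over all genes tested. The method was tested on simulated data with known changes.

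Genes described singly were the 6 of highest score, the 5 most abundant, the 4 highest and 4 lowest positions at 15 min and at 4 h, the 4 largest called changes per comparison and direction, and 3 on each side of the threshold. CCRYP_003637, CCRYP_014128, CCRYP_016531, CCRYP_017639, CCRYP_020584 and the genes next to each other in number fall outside this rule and were chosen after their values were seen. The members and lists were chosen with earlier results of these data known. Alternatives were DESeq2 1.42.0, limma-voom (limma 3.58.1), other scalings, filters, columns and a replicate block.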

Additional observations from a re-analysis of the deposited data

How the results depend on the processing

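Without a filter on low counts, 32 of the 150 genes were called between 2 h and 15 min, 34 between 4 h and 15 min, 56 between 4 h and 2 h and 81 among the 3 times. With all 27 deposited columns, copies and means included, these numbers were 99, 68, 102 and 125, and the background among the 3 times was 50.2%. Leaving out 1 column of 15 min, 2 h or 4 h gave 3 to 26, 6 to 23, 7 to 36 and 29 to 49 genes. DESeq2, limma-voom, other scalings, CCRYP_005887 kept and a fit of the 3 times alone stayed within 1.5 times of the reported counts. The replicate numbers 1 and 3 of 15 min and 2 h did not move together (correlation of column differences across genes 0.01). A replicate block gave 26, 27, 37 and 67 genes. Apart from the 27 columns, the share of all genes called under each setting is not given here. These counts alone therefore do not show whether the 150 genes stood out more or less from the background.

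Of the 150 genes, 94 were kept with a mean CPM minimum of 20, which removes all genes below it, and 131 to 146 when 1 column of 30 min, 8 h or 10 h was left out. With 1 h alone as the acute time 115 were kept, and with 30 min alone 120. The median position at 2 h was 63.0% without 0 min in the baseline and 53.8% without 8 h and 10 h. At 4 h these values were 14.0% and -0.15%. Leaving out 1 column gave 11.5% to 39.0% at 15 min, 56.2% to 60.2% at 2 h and 4.81% to 13.9% at 4 h.

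Over 16 single-gene calls and 240 alternative values, 214 kept the call, 26 lost it and 0 changed direction. The columns used held 2809130 to 6889349 gene counts, and how depth limited the calls was not tested.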
